A study of Mus musculus with 2 samples.

Results

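The genes described here encode 9 transcription factors that direct blood progenitors into the granulocyte, monocyte and dendritic cell lineages, namely Spi1 (PU.1), Cebpa, Cebpb, Cebpd, Cebpe, Gfi1, Irf8, Klf4 and Batf3. Probes were assigned to genes by RefSeq accession or, failing that, by symbol or older symbol. All probes of the factors matched by accession, and the arrays list Spi1 as Sfpi1 and Batf3 as 9130211I03Rik. Of the 9 genes 8 had a probe, 11 probes in all, out of 27620 genes with a probe on the array. Cebpe, a factor of late granulocyte maturation, had no probe by this rule and is not analysed here.

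The study put an active form of the transcription factor MEF2C back into M/E cells, bone marrow cells of the mouse that grow indefinitely because they express MLL/ENL, a fusion gene of acute leukaemias. Cells of both groups had the genotype M/E-Mef2c del/-, described in the labels as lacking functional Mef2c. The MEF2C-ASR culture carried the vector MYs-pMef2cASR, whose Mef2c cannot bind histone deacetylases and is constitutively active, and the control culture carried the empty vector MYs-iPAC. Both were selected with puromycin and grown with SCF at 100 ng/ml and with IL3, IL6 and GM-CSF at 10 ng/ml, and RNA from 6, 24 and 48 h after seeding was pooled per culture. Each group is therefore 1 array, both on the same slide, and no difference has a replicate check, so that no p-value is given and "higher" and "lower" describe these 2 arrays. The comparison asks what these factors and the genes that they act on did when active MEF2C was present. The medium holds cytokines that act on myeloid progenitors, in both groups alike, and the values describe cells kept growing by MLL/ENL.

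PU.1, an ETS family factor, and the C/EBP factors act together early in myeloid development, and C/EBP activity drives granulocyte genes. GFI1 represses monocyte and stem cell genes in granulocyte precursors, while IRF8, with PU.1, and KLF4 favour monocytes. BATF3 pairs with JUN proteins and IRF8 in type 1 conventional dendritic cells. A difference in such factors is often read together with that in their targets, and the target genes were therefore described as lists beside them.

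Batf3 was the factor with the largest difference, 2.37-fold higher on the MEF2C-ASR array (log2 difference 1.24), and Irf8 followed at 1.47-fold (0.55). All 8 factors lay above 0 on the log2 scale, as did all 11 probes, and 44.8% of the 16574 genes measured on both arrays did so. Batf3 alone reached 2-fold, against 1.74% of all genes that were at least 2-fold higher. None of the 8 was at least 2-fold lower, against 1.91% of all genes. The other 7 lay within 1.5-fold, and 90.4% of all genes did so too. The median over the 8 factors was 0.30, beside -0.03 over all genes. Differences are log2 of the processed signal relative to each array's 75th percentile, MEF2C-ASR minus control, and a measured probe is one well above background on both arrays.

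The promoters of the factors with the largest differences, Batf3 and Irf8, and of the factor with the smallest, Gfi1, are shown to let the regulatory sequence be read beside the values. They are RefSeq sequences of the mouse build GRCm38.p6, from 250 bases before to 50 bases after the transcription start, at chr1:191098164-191098463 on the plus strand for Batf3, chr8:120736108-120736407 on the plus strand for Irf8 and chr5:107725756-107726055 on the minus strand for Gfi1. Capitals mark matches, on either strand, to the PU.1 core GAGGAA, the KLF core CCACCC and the STAT motif TTCNNNGAA, read 5′ to 3′.
Batf3: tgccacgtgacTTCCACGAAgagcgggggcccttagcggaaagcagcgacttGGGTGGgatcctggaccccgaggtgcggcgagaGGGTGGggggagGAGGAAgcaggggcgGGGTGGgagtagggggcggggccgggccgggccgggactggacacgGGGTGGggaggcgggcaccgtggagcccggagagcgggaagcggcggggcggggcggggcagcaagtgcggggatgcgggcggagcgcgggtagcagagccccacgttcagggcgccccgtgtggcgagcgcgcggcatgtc
Irf8: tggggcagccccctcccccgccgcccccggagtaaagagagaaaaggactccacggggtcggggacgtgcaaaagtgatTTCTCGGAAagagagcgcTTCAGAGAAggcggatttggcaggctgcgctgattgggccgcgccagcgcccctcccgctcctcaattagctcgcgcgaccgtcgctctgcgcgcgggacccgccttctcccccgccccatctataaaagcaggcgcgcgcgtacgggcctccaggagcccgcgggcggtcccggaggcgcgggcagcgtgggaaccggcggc
Gfi1: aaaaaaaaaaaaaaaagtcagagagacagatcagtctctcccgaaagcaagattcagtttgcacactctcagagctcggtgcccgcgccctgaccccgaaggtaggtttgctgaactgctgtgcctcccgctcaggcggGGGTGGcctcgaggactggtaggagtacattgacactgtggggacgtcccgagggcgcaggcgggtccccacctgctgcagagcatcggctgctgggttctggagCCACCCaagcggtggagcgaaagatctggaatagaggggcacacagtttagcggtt

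The Batf3 window held the PU.1 core at -153, the KLF core at -198, -165, -138 and -92, all on the reverse strand, and the STAT motif at -239, counted from the start. The Irf8 window held the STAT motif at -171 and again at -153. The first Gfi1 window held the KLF core at -111 and -6 and neither of the other 2 motifs. RefSeq entries matched 6 of the 9 factors with 8 promoters, a second one each for Gfi1 and Irf8 holding no match, and Spi1, Cebpd and Cebpe had no entry. Among the remaining promoters the KLF core was found in Cebpa at -242 and 45 and in Cebpb at -38, and Klf4 held no match. None of the 8 windows held the MEF2 consensus, the C/EBP motif TTGCNNCAA, the interferon response motif GAAANNGAA, the AP-1 motif TGANTCA or the GFI1 core TAAATC. Of 32851 promoters of the same length, 28.3% held the PU.1 core, 31.5% the KLF core, 8.30% the STAT motif and 3.19% the MEF2 consensus. The shares were 2.08% for the C/EBP motif, 8.56% for the interferon response motif, 7.81% for AP-1 and 9.19% for the GFI1 core. The STAT motif was added after the sequences had been seen. The windows of Batf3 (75.7% G and C), Irf8 (70.0%), Cebpa (67.3%), Cebpb (80.7%), Klf4 (74.3%) and Gfi1 (58.0%) were richer in G and C than the median promoter (52.7%). A match describes letters in this window and is no evidence of binding.

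On the whole array, 29283 of 43379 spots (67.5%) were well above background with MEF2C-ASR and 26054 (60.1%) in the control. Mef2c, the gene deleted and put back, had a signal of 1969 with MEF2C-ASR and 795 in the control, 2.54-fold higher. Its second probe was too dim to measure on both arrays, and the mean over both probes was 0.68. Whether the measured probe lies in the deleted part of the gene or in the vector's transcript is not stated in the labels, so this value does not tell the endogenous transcript and the introduced one apart. Hprt, the labels' reference transcript for PCR, differed by 0.02. The 9 markers fixed for myeloid progenitors, among them Kit, Cd34, Mpo and Elane, were all measured, between 1.01-fold higher for Ctsg and 2.15-fold higher for Mpo. All lay above 0, beside 44.8% of all genes, with a median of 0.50 (0.36 with spike-in scaling). Ctsg at 0.02 and Cd34 at 0.10 lay above 0 by less than the spike-in shift of -0.14. The unscaled signals summed to 555651 with MEF2C-ASR and 434428 in the control. Of these 9 markers, the 3 granule enzyme genes Mpo, Elane and Prtn3 also stand in the list of C/EBP targets below.

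Spi1 encodes PU.1, which is needed for both monocytes and granulocytes. Its probe, listed on chromosome 2 from 90950224 to 90964011, a span of 13788 bases, had a signal of 1088 on the MEF2C-ASR array and 851 on the control array. The difference was 0.39 (1.31-fold higher), with a standard deviation of 0.20 from the scanner software's error estimate, which was about 10.0% of the signal on each array. The build behind the probe coordinates, here and below, is not given in the sources used, and they cannot be set against the promoter coordinates above. Spi1 ranked 1462 of 16574 genes by difference, with 91.2% of genes below it.

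A second scale for the error came from non-control probes printed 10 times across the array. The standard deviation of a difference over such spots was 0.26 at signals under 200, 0.09 between 200 and 2000, and 0.06 above 2000. The repeated probes were classed by the geometric mean of their signals on both arrays. The probes of the factors were classed by their dimmer array, which can assign a larger error. The Spi1 difference was 4.56 times this spotting error. The error from spotting holds neither the variation between cultures nor that between RNA pools or labelling reactions. Of the 11 probes of the factors, 7 differed by more than 2 times the spotting error of their class. That count depends on the class given to the first Irf8 probe, whose signals lie on either side of 200. By contrast 2 probes, those of Batf3 and the second of Irf8, exceeded 2 times the scanner software's error.

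Cebpa, the factor that starts the granulocyte programme, was measured by 2 probes on chromosome 7 at 32010056 to 32010115 and 32011212 to 32011271. The first had a signal of 1157 with MEF2C-ASR and 1096 in the control (difference 0.12), and the second 7959 with MEF2C-ASR and 7229 in the control (0.17). The mean of 0.15, or 1.11-fold, lay within the error estimate of a probe (0.20). With scaling by the spike-in spots it was 0.01.

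Cebpb, the factor of emergency granulopoiesis and macrophage activation, also had 2 probes, on chromosome 2 at 167482463 to 167482522 and 167483001 to 167483059. Their signals were 16327 and 70898 with MEF2C-ASR against 14582 and 59078 in the control. The probes differed by 0.20 and 0.30, with a mean of 0.25 (1.19-fold higher), and lay 0.10 apart.

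Cebpd is a C/EBP factor induced by inflammatory signals and cytokines. Its probe on chromosome 16 at 15431723 to 15431782 had a signal of 66123 with MEF2C-ASR and 52899 in the control, a difference of 0.36 (1.28-fold higher). This was 6.30 times the spotting error and 1.75 times the scanner software's error. All 5 C/EBP probes were thus higher on the MEF2C-ASR array, and none of the 3 genes was past 1.5-fold.

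Gfi1, the zinc finger repressor that favours granulocytes over monocytes, had nearly equal signals. Its probe on chromosome 5 at 106894171 to 106894230 had 42685 with MEF2C-ASR and 41563 in the control, a difference of 0.07 (1.05-fold). This lay within the scanner software's error of 0.20 and was 1.31 times the spotting error. Gfi1 was the factor whose sign depended on the scaling, with -0.07 under the spike-in spots.

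Irf8 drives monocyte and dendritic cell development and restrains granulocyte formation. It was measured by 2 probes on chromosome 8, at 119390963 to 119391022 and 119391398 to 119391457, which start 435 bases apart. The first had a signal of 243 with MEF2C-ASR and 198 in the control, a difference of 0.33 (1.26-fold). The second had 1111 with MEF2C-ASR and 666 in the control, a difference of 0.77 (1.71-fold).
Both were higher with MEF2C-ASR, but by unequal amounts, 0.44 apart. By the class of its dimmer array, the difference of the first probe was 1.27 times the spotting error, and that of the second 9.06 times. Signals of the first probe lay on either side of the class limit of 200. Its MEF2C-ASR signal falls in the class with an error of 0.09. The mean of 0.55 averages these unequal probes. Irf8 ranked 836 of 16574 genes.

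Klf4, a factor of monocyte differentiation, lay near the lower limit of measurement. Its probe on chromosome 4 at 55541780 to 55541839 had a signal of 68.8 with MEF2C-ASR and 60.0 in the control. The lowest signal well above background was 19.98 on the MEF2C-ASR array and 38.3 on the control array, so the control value was 1.57 times its limit. The difference of 0.23 (1.18-fold) was within both its error estimate of 0.29 and the spotting error of 0.26.

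Batf3, with its probe on chromosome 1 at 190662155 to 190662214, had a signal of 342 with MEF2C-ASR and 148 in the control. The difference of 1.24 was 5.65 times the scanner software's error (0.22). It was 4.76 times the spotting error of probes under 200, the class of its control signal. Both signals were above the limit of their array, 17.1 times with MEF2C-ASR and 3.86 times in the control. Batf3 ranked 177 of 16574 genes, with 98.9% of genes below it. It rests on 1 probe printed once, and its call depends on the background correction. With normexp correction on the local backgrounds as given Batf3 was reversed, to -0.79, and Irf8 and Klf4 were also below 0, at -0.47 and -2.34. That setting moved the median of all genes to -0.58 and Hprt to 0.67, and 6543 genes were then at least 2-fold lower. With flagged local backgrounds replaced before normexp, an alternative chosen after seeing the data and called replaced normexp below, Batf3 was at 0.96, just under 2-fold. In pooled RNA of a culture, fewer cells that express a gene and less of its RNA per cell cannot be told apart, which holds for Batf3 and for every gene below.

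**Figure D1:**
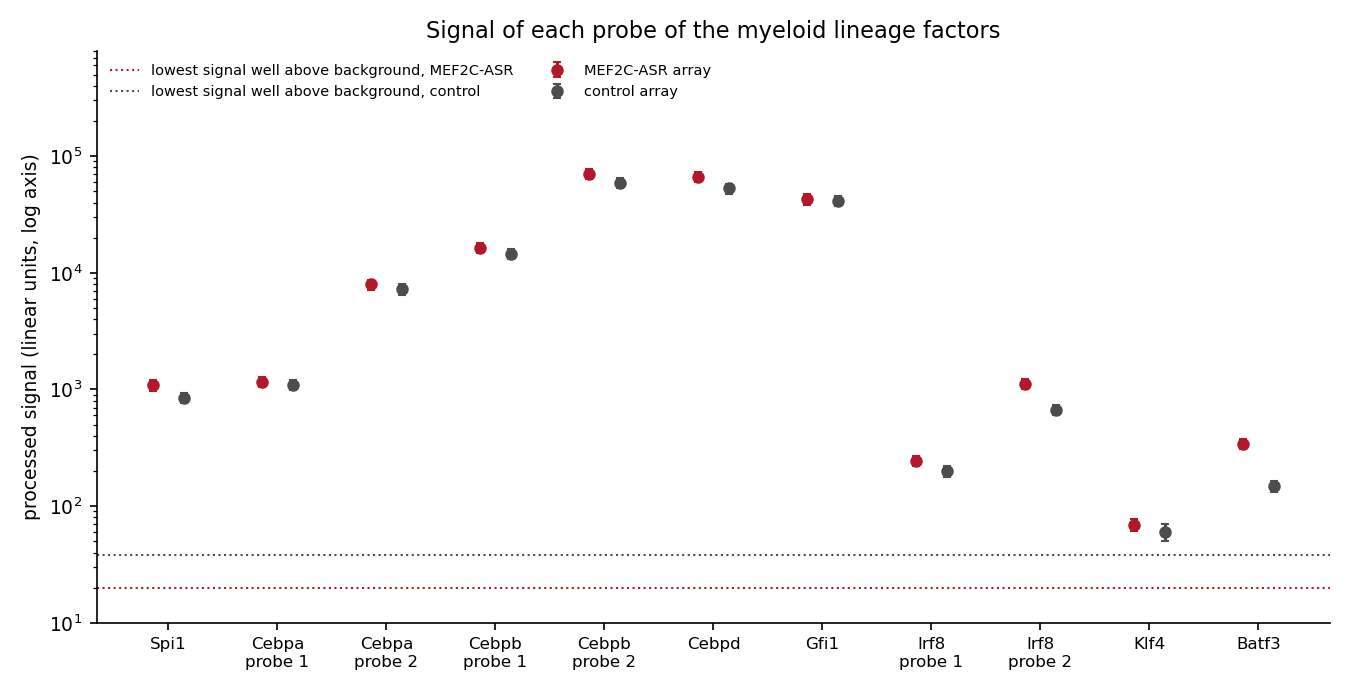
Processed signal of each of the 11 probes on the MEF2C-ASR array (red, left of each pair) and the control array (grey) on a log axis, with bars for the scanner software's error of a spot and dotted lines for the lowest signal well above background on each array. The red point is the higher one in every pair, and the gap is widest for Batf3, at 342 with MEF2C-ASR and 148 in the control; heights of different probes cannot be compared.

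Because dim genes scatter more, each factor was also set beside the 828 or 829 measured genes of the same level bin, out of 20 bins. Batf3 lay outside the central range of its bin, which ran between -0.59 and 0.62 (5th and 95th percentiles), and 2.53% of that bin was at least 2-fold higher. The other 7 lay inside theirs. Irf8 was near the top, with 93.0% of its bin below it, and so were Cebpd (92.6%), Spi1 (91.4%) and Cebpb (87.2%). Klf4 (82.0%), Cebpa (75.7%) and Gfi1 (68.5%) lay closer to the middle. The position of each factor is a description of these 2 arrays.

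**Figure D2:**
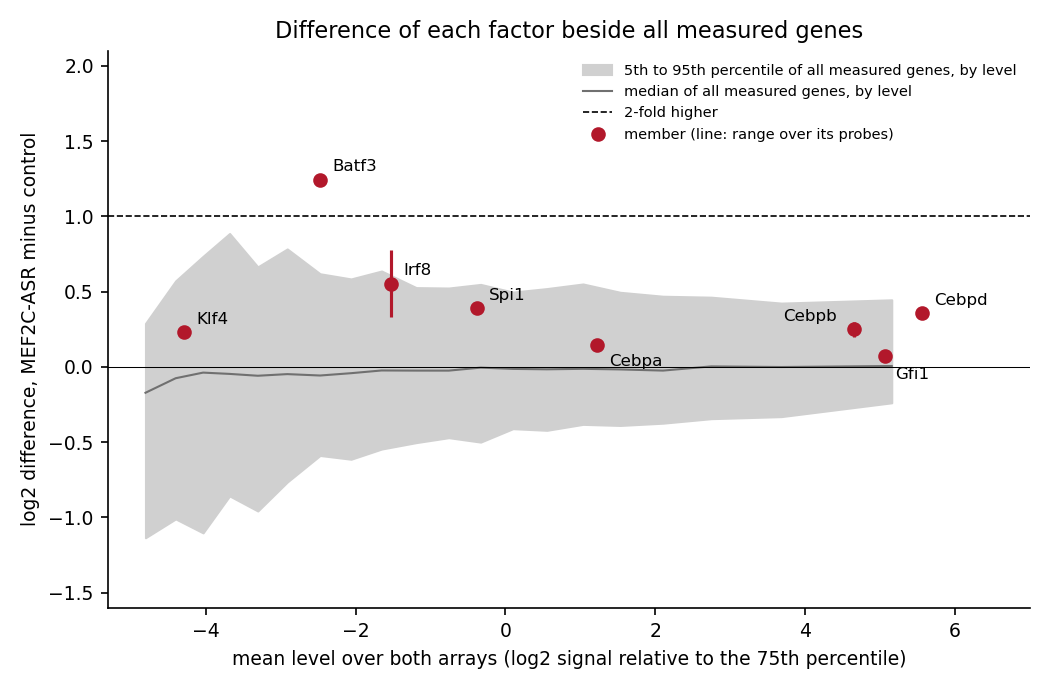
Log2 difference, MEF2C-ASR minus control, of each factor (red points, with a line over its probes where it had 2) against its mean level over both arrays, on a grey band from the 5th to the 95th percentile of all measured genes drawn at the middle of each level bin. Batf3 at 1.24 stands above the band and above the dashed line at 2-fold, and Cebpd lies to the right of the band's last bin centre.

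The relatives of the factors differed by varying amounts between families. Beside the counts below, 44.8% of all measured genes lay above 0, 1.74% were at least 2-fold higher and 1.91% at least 2-fold lower. Among 5 C/EBP relatives and regulators 4 were measured, all above 0, with a median of 0.42 (0.28 with spike-in scaling) and none at 2-fold. Ddit3, the stress-induced C/EBP relative CHOP, had 1055 with MEF2C-ASR and 816 in the control (0.41), and the pseudokinase gene Trib3 differed by 0.06. Of 11 other ETS family genes 9 were measured, 8 of them above 0, with a median of 0.26 and none at 2-fold. Fli1, an ETS factor of blood progenitors, differed by 0.27 and Gabpa by 0.10. Of the PU.1 relatives, Spic was above background on neither array and Spib was above it with MEF2C-ASR alone, at 24.8 with MEF2C-ASR and 35.1 in the control, so that no bound could be set.

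In the IRF family, 7 of 8 other genes were measured, 4 above 0, with a median of 0.02 (-0.12 with spike-in scaling). Irf5, a factor of inflammatory macrophages, was the member past 2-fold, with 835 on the MEF2C-ASR array and 379 on the control array (1.18, 2.26-fold higher). Irf4, a factor of dendritic cells and lymphocytes, had 82.5 with MEF2C-ASR and 38.6 in the control, where it was not well above background. It was at least 2.19-fold higher, a bound set against its own control signal, which was above that array's limit. On the log2 scale the bound was 0.99 with spike-in scaling and 0.46 with replaced normexp, both under 2-fold. Irf2 was at 0.53, Irf7 at 0.07, Irf3 at 0.02, Irf1 at -0.01 and Irf9 at -0.01, named after their values were seen. The value of Irf1 is the mean of 2 probes of opposite sign, -0.28 and 0.26. Probes of Irf3 and Irf9 also differed in sign, by smaller amounts.

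All 10 other KLF genes were measured, 6 above 0, with a median of 0.15, and none was called at 2-fold. Klf2, a factor of quiescent monocytes and lymphocytes, had probes that disagreed, 6078 with MEF2C-ASR against 2298 in the control (1.44) and 81128 with MEF2C-ASR against 107116 in the control (-0.36). Its mean of 0.54 therefore describes neither probe, and with its brightest probe it was -0.36. Klf6, induced in activated macrophages, differed by 0.50.

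Of the relatives and partners of BATF3, 9 of 10 were measured and 7 lay above 0, with a median of 0.05. The partners Junb and Jund differed by 0.26 and 0.20. The other BATF genes stood below Batf3, with log2 differences of 0.37 for Batf (1.29-fold) and -0.14 for Batf2, both named after their values were seen. Fos had a bound of 0.47. The GFI1 relative and its corepressors were all 7 measured, 3 above 0, with a median of -0.02, including the histone methyltransferase Ehmt2 (0.02) and the deacetylase Hdac1 (0.07).

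Partner factors of myeloid development were 16, of which 15 were measured and 10 lay above 0, with a median of 0.16 and none at 2-fold. Myc, the growth regulator, differed by 0.14 and Lmo2, a bridge protein of blood progenitor complexes, by 0.45. Among 10 factors of erythroid, megakaryocyte, B and T cell lineages, 5 were measured, 1 of them above 0, and the median was -0.26. Gata3, a T cell factor, was at least 2.31-fold lower by its bound, with 20.9 on the MEF2C-ASR array and 49.5 on the control array. This gene was near the limit of measurement, and its bound was -0.40 with replaced normexp.

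Target genes of PU.1, the C/EBP factors and GFI1 had higher median differences than the 0.30 of the factors themselves. These lists were chosen with earlier results of these data known, so their medians are a description only. Of 16 PU.1 target genes all were measured, and 15 lay above 0, against 44.8% of all genes. At least 2-fold higher were 4, against 1.74% of all genes. Their median was 0.60 (0.46 with spike-in scaling). Msr1, a scavenger receptor of macrophages, had 295 with MEF2C-ASR and 48.5 in the control (2.64) on the probe measured in both. It was 1.67 with replaced normexp and -0.82 with normexp on backgrounds as given. A pair of further Msr1 probes was above background with MEF2C-ASR alone, at 254 and 80.5 with MEF2C-ASR against 8.74 and 7.95 in the control, and with all probes kept the gene was at 3.64. Csf1r, the receptor for the macrophage growth factor CSF1, was 3.08-fold higher, with its 2 measured probes at 1.53 and 1.72. A further Csf1r probe was above background with MEF2C-ASR alone (52.3 with MEF2C-ASR and 28.8 in the control), and with all probes kept the gene was at 1.38. The tyrosine kinase gene Btk had 13210 with MEF2C-ASR and 5998 in the control (1.18). Cybb, the catalytic subunit of the phagocyte oxidase, was at 1.01, but at 0.87 with spike-in scaling and at 0.86 with replaced normexp. The exception below 0 was the high-affinity IgG receptor gene Fcgr1 at -0.51, named after its value was seen.

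Targets of C/EBP factors in granulocytes were likewise all measured, 16 of 16, with 15 above 0, beside 44.8% of all genes, and 4 at least 2-fold higher, beside 1.74% of all genes. Their median was 0.54 (0.40 with spike-in scaling). Mmp8, the neutrophil collagenase, had 8860 with MEF2C-ASR and 1692 in the control (2.42, 5.37-fold higher). Camp, which encodes the antimicrobial peptide cathelicidin, differed by 1.44, S100a8, a subunit of calprotectin, by 1.27, while the peroxidase gene Mpo was 2.15-fold higher (log2 difference 0.96 with spike-in scaling). S100a9, the other calprotectin subunit, had 302976 with MEF2C-ASR and 258469 in the control, a difference of 0.27, named after its value was seen. The 3 measured C/EBP genes lay between 0.15 and 0.36.

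Genes repressed by GFI1 had a like median, 0.59, beside 0.07 for Gfi1 itself. Of 10 such genes 9 were measured and 8 lay above 0, beside 44.8% of all genes. Egr1 alone was at least 2-fold higher, beside 1.74% of all genes. Egr1, a factor of monocyte differentiation and an immediate early gene, had 246 with MEF2C-ASR and 55.3 in the control (2.19). It was 1.36 with replaced normexp and -1.12 with normexp on backgrounds as given. Hoxa9, a homeobox gene that MLL fusions keep active, lay at -0.09.

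IRF8 targets were mostly outside the range of measurement. Of 9 genes 4 were measured, with a median of 0.04, and the interleukin gene Il12b, Nos2 and Prdm1 were above background on neither array. Ciita and Cx3cr1 were above it with MEF2C-ASR alone, too dimly for a bound, since the lowest level well above background was higher in the control. Mpeg1, a pore-forming protein of macrophages, had 1700 with MEF2C-ASR and 772 in the control (1.17, 2.26-fold higher), while Cst3, Asah1 and Tlr9 lay between -0.20 and 0.06. Of 12 genes of type 1 dendritic cells, the cells for which BATF3 is known, 9 were measured, with a median of 0.19. Above 0 lay 8, beside 44.8% of all genes. Bcl6, a transcriptional repressor, had 630 with MEF2C-ASR and 142 in the control (2.19, 4.55-fold higher). Its probe, the 1 it has, carried a background flag and is lost without such spots, so that no gene of the list is then at 2-fold, and the gene was at -0.086 with normexp on backgrounds as given. Clec9a, a defining receptor of these cells, had 7.40 with MEF2C-ASR and 9.08 in the control, above background on neither array, and the same held for the RNA sensor gene Tlr3. Xcr1, their chemokine receptor, had 277 with MEF2C-ASR and 229 in the control (0.31). After Bcl6 the highest of the list were Naaa (0.74) and Nfil3 (0.60), and Zbtb46 (-0.07) lay below 0, all named after their values were seen. A link of the Batf3 signal to these genes was not tested.

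**Figure D3:**
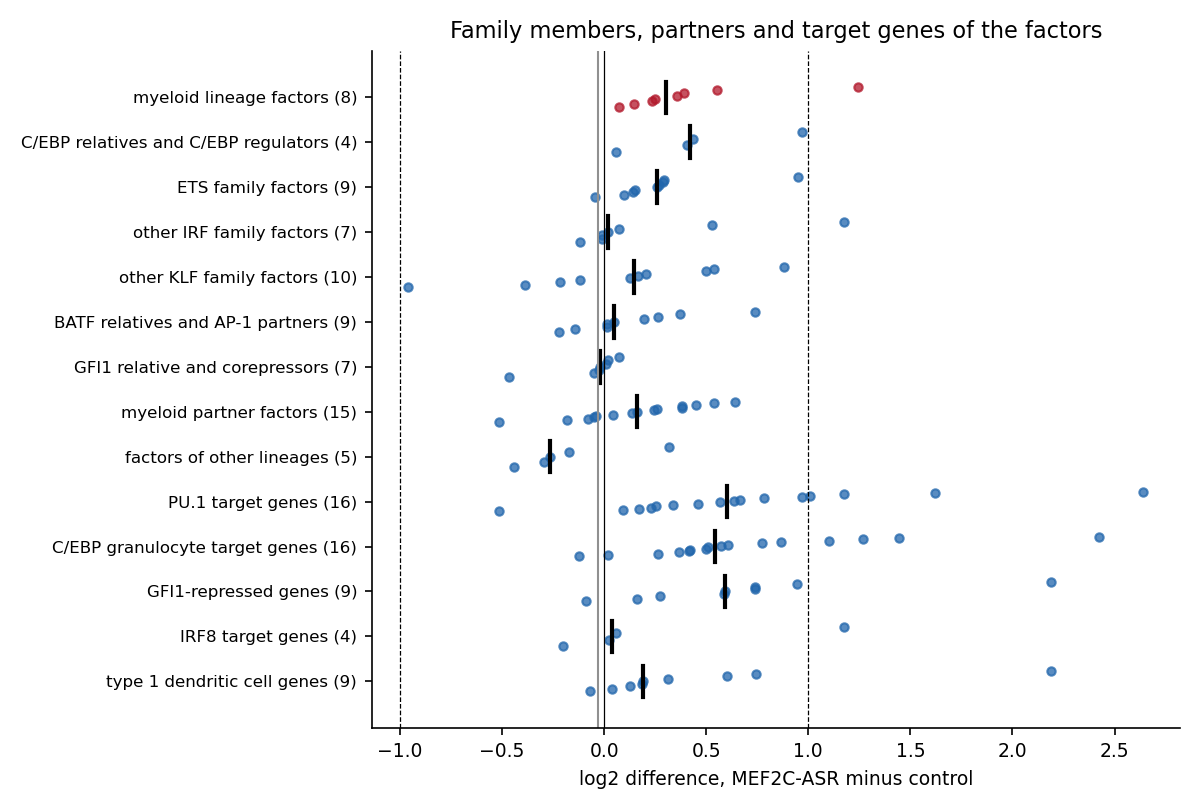
Log2 difference, MEF2C-ASR minus control, of every measured gene of the 8 factors (red) and of each list (blue), with the number measured in parentheses, a black bar at the list's median, dashed lines at 2-fold and a grey line at the median of all genes (-0.03). The medians of PU.1 targets (0.60), C/EBP targets (0.54) and GFI1-repressed genes (0.59) lie to the right of that of the factors (0.30). The lists were chosen with earlier results of these data known.

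Markers of other cell types were mostly at low signals in both cultures. The highest were the basophil gene Mcpt8, with 604 with MEF2C-ASR and 697 in the control, and the megakaryocyte gene Pf4, with 556 and 242. The sums below are of processed signals without scaling between the arrays. They take in every probe of a list, also those not above background. Erythroid markers had a summed signal of 390 with MEF2C-ASR and 393 in the control over 4 genes with a probe, 3 of them measured. Mast cell and basophil markers summed to 895 with MEF2C-ASR and 1033 in the control, with 4 of 5 measured and Cpa3 not above background. Stromal markers summed to 428 with MEF2C-ASR and 439 in the control, with 3 of 5 measured and Dcn not above background. Single stromal genes went opposite ways, Pdgfrb at -1.81 (23.4 with MEF2C-ASR and 83.8 in the control) and Col1a1 at 0.89.
Without scaling, these 3 sums were lower with MEF2C-ASR, while those of the lists that follow were higher. The array's 75th percentile was likewise lower with MEF2C-ASR, at 1240 against 1272 in the control. After scaling, the median log2 differences of the measured genes were 0.06 (erythroid), -0.08 (mast cell and basophil) and -0.06 (stroma). Megakaryocyte markers summed to 783 with MEF2C-ASR and 489 in the control, with 3 of 4 measured and Pf4 at 1.24. B cell markers summed to 437 with MEF2C-ASR and 357 in the control. T cell markers summed to 574 with MEF2C-ASR and 458 in the control. Cd3g was not above background, and 2 of 5 markers were measured in each list. Among these were Cd79a at 1.15 (119 with MEF2C-ASR and 55.3 in the control) and Cd3e at 0.77. The part of these cells in the differences of the factors was not tested.

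The choice of scaling moved all differences together. With the 7 usable spike-in probes in place of the 75th percentile, every difference moved by -0.14 and the median of all genes was -0.17. On that scale 7 of the 8 factors lay above 0, Cebpa at 0.01, beside 24.7% of all genes, and 218 genes were at least 2-fold higher and 430 at least 2-fold lower, in place of 289 higher and 316 lower. Relative to the all-gene median the differences are the same under both scalings, 1.28 for Batf3, 0.58 for Irf8, 0.42 for Spi1, 0.39 for Cebpd, 0.28 for Cebpb, 0.26 for Klf4, 0.18 for Cebpa and 0.10 for Gfi1.

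**Figure D4:**
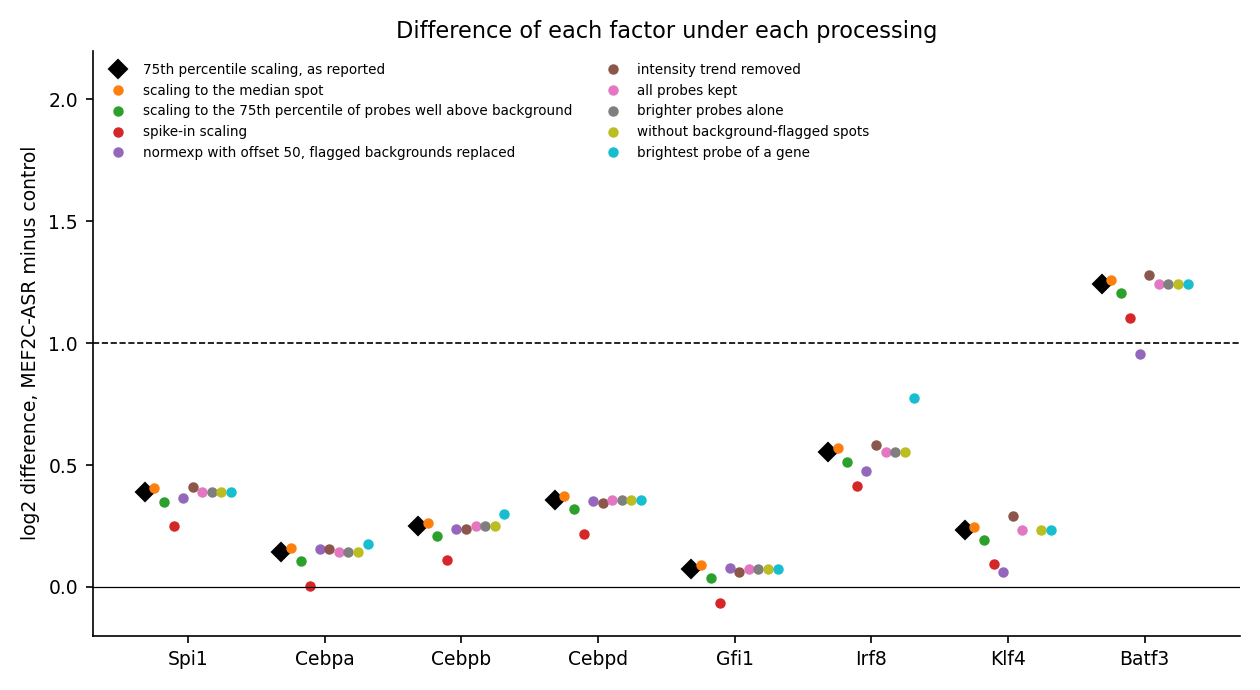
Log2 difference, MEF2C-ASR minus control, of each factor as reported (black diamonds) and under 9 of the 10 alternatives (coloured points), with a dashed line at 2-fold; normexp on backgrounds as given is not drawn, and put Batf3 at -0.79, Irf8 at -0.47 and Klf4 at -2.34. In the settings drawn Batf3 lies between 0.96 and 1.28, Irf8 between 0.41 and 0.77, and Gfi1 is at -0.07 with spike-in scaling; Klf4 has no point for brighter probes alone, where it was left out.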

How the data were processed

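Total RNA of 1 MEF2C-ASR and 1 control culture, pooled over harvests, was hybridised to 1-colour Agilent whole mouse genome arrays. The authors deposited linear spot intensities. Per the file headers, Feature Extraction 9.5.1.1 made them by background subtraction and by spatial and multiplicative detrending, with surrogates for dim spots and no normalization between arrays. The deposited value table (45018 rows) was identical to these values, with medians of 83.2 on the MEF2C-ASR array and 85.8 on the control array.

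From the log2 of these intensities the log2 of the array's 75th percentile (non-control spots) was taken off, a signal of 1240 with MEF2C-ASR and 1272 in the control. Control spots and outlier spots (201 with MEF2C-ASR and 202 in the control) were left out, and no spot was saturated. Spots of a probe were averaged, and a gene's value is the mean over its measured probes, 24379 of 41085. Probes were named through a RefSeq table of GRCm38.p6, with 22916 matches on accession, 6638 on symbol, 3101 on a former symbol and none for 8430, which go by the array's own name. A gene was called at 2-fold, with all measured probes of 1 sign. A gene seen on 1 array alone got a bound where that array's level was the higher (790 genes). The spotting error came from the 131 of 245 probes printed 10 times that were well above background in both groups.

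Named are all factors, Mef2c, Hprt and, in each list, up to 4 genes at least 2-fold apart, or the 2 of highest level where none was. The factors and lists were chosen with earlier results of these data known. With 1 array per group no test was possible, and the number of arrays limits the precision. Averaging over probes and the 2-fold call were tested on simulated data with changes larger than 2-fold. The simulation did not include scaling, background correction or bounds, and its noise was the same for dim and bright probes. Alternatives changed the scaling, background correction (normexp, limma 3.58.1 in R 4.3.3), probe filter, intensity trend (statsmodels 0.14.6) and probe choice. Other steps ran in Python 3.11.15.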

Additional observations from a re-analysis of the deposited data

How the results depend on the processing

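Direction was kept by every factor but Gfi1 (-0.07 with spike-in scaling) under scaling to the median spot, to the 75th percentile of probes well above background and to spike-ins, with the intensity trend removed, all probes kept, brighter probes alone, no background-flagged spots and the brightest probe. The factors' median ran between 0.16 (spike-ins) and 0.36 (brighter probes), and Batf3 stayed past 2-fold in each of these. All probes kept gave 790 genes higher and 980 lower, and brighter probes alone 203 higher and 109 lower. Normexp with offset 50 and flagged local backgrounds replaced, chosen after seeing the data, gave 0 factors, 164 genes higher and 120 lower. With local backgrounds as given, normexp gave 0 factors higher and 1 lower (Klf4, -2.34) and 6543 genes lower, and it reversed Batf3 (-0.79), Msr1 (-0.82), Egr1 (-1.12) and Bcl6 (-0.086). There, the lowest signal minus local background was -57949 in the control, and the fitted background mean was -11.02 with MEF2C-ASR and -905 in the control, against -9.97 with MEF2C-ASR and -11.1 in the control once replaced. No paired analysis was possible because each group has 1 array. Klf4, at 1.57 times the control array's limit, and genes below background are limited by signal. Without the unreplaced normexp, 412 of 429 values of single genes and lists moved by less than 0.14, the spotting error pooled over all signal classes, and 17 by more, the cause not tested; bright probes have a smaller error, which the spike-in shift exceeds.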

Other observations

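Some list members below 2-fold on average, chosen here after their values were seen, had larger differences than most of the factors. Trib1, which directs C/EBP-alpha to degradation in leukaemia, had 251 with MEF2C-ASR and 132 in the control (log2 difference 0.97, 1.96-fold higher). The ETS gene Erg, a factor of blood stem cells, had probes at 0.63 and 1.28 with a mean of 0.95. Jdp2, an AP-1 family repressor, had 9693 with MEF2C-ASR and 5953 in the control (0.74). Klf1, the erythroid KLF factor, had 54.4 with MEF2C-ASR and 108 in the control (-0.96), and Gfi1b, the erythroid and megakaryocyte relative of Gfi1, had 167 with MEF2C-ASR and 236 in the control (-0.47).

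Among further phagocyte genes, the lysozyme gene Lyz2 had probes at 0.76 and 1.18 with a mean of 0.97, the macrophage growth factor gene Csf1 had 981 with MEF2C-ASR and 522 in the control (0.95), and the granulocyte growth factor receptor gene Csf3r had 2841 with MEF2C-ASR and 1692 in the control (0.78). Maf, a macrophage factor, had 4546 with MEF2C-ASR and 6653 in the control (-0.51).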
